A study of Homo sapiens with 12 samples.

Results

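The 10 genes followed here belong to the NF-kB response, read in MDA-MB-231 cells deprived of glucose, glutamine or both: the chemokines CXCL1, CXCL2, CXCL3 and CXCL8, the cytokines IL6, IL11 and LIF, and the feedback regulators TNFAIP3, NFKBIA and BIRC3. They were chosen by name, with earlier results of these data known, as 10 of the 63187 genes listed in the expression table. The counts of called members set beside all genes below are therefore descriptions and do not test the group. Genes were tested where 3 or more of the 12 libraries had a normalized count of 10 or above, which held for 8 of these 10 genes and for 9270 genes in all. CXCL3 and IL6 did not pass it and are described by their values.

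MDA-MB-231 is an established human breast adenocarcinoma line of the mesenchymal, triple-negative kind. The cells were grown with 10% serum and then kept for 36 h with 3% serum in one of the 4 media compared here. Cells in full medium had glucose at 25 mM and glutamine at 4 mM, those in glucose-only medium had glucose at 25 mM alone, those in glutamine-only medium had glutamine at 4 mM alone, and those in deficient medium had neither. Each medium had 3 libraries of ribosome-depleted total RNA, lettered A, B and C, all from this cell line, and since the labels do not say whether these were separate cultures, the p-values measure a spread between libraries that may be technical.

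NF-kB is a family of dimeric transcription factors held in the cytoplasm by inhibitors of the IkB family. Signals from cytokine receptors and from cell stress lead to degradation of IkB, and the freed dimers bind short kappaB sites in DNA and switch on chemokine and cytokine genes together with genes that end the response. Several of the same genes are also driven by other factors such as AP-1, and many of their transcripts carry AU-rich elements through which decay factors shorten their life. In this cell line NF-kB is known to be active without added stimulus.

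The promoter sequences are shown because they set out which members share a kappaB site, the DNA element by which the group is known, and which do not. Of the 10 genes, 9 were matched in a RefSeq promoter table of build GRCh38.p14, and the 250 bases before each listed start were searched on both strands. The kappaB consensus was found in 7 of these 9 promoters, against 5.21% of 35116 promoters of the same length. The core GGAATTTCC, which can overlap that consensus, was in 5 of the 9, against 0.413% of promoters. CXCL8 matched this core and not the consensus. The genes were picked as NF-kB genes, so these shares describe the group and do not test it. The AP-1 motif TGANTCA was in 2 of the 9, CXCL8 and IL11, against 6.57%. A match describes the letters only and shows no binding. The stretches below run 5′ to 3′ on each gene's own strand, with the matched motifs in capitals. The first set holds the kappaB matches of the 3 related chemokines on chromosome 4, at chr4:73869305-73869334 (plus strand), chr4:74099253-74099282 (minus strand) and chr4:74038748-74038777 (minus strand).
CXCL1: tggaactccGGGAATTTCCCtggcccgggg
CXCL2: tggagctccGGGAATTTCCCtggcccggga
CXCL3: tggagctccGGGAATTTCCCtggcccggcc
The capitals in these 3 genes are identical, and the printed stretches lie 88 to 58 bases before the listed starts. CXCL8 has an AP-1 match at chr4:73740421-73740450 and a separate core match at chr4:73740468-73740497, both on the plus strand.
CXCL8 AP-1: aggaagtgtgaTGACTCAggtttgccctga
CXCL8 core: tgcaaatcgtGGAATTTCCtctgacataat
The kappaB matches of IL6 (chr7:22727117-22727146), TNFAIP3 (chr6:137867188-137867217) and BIRC3 (chr11:102317275-102317304 and chr11:102317339-102317368) are on plus-strand genes. TNFAIP3 and BIRC3 have 2 each.
IL6: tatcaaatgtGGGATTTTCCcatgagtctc
TNFAIP3: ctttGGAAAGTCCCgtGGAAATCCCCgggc
BIRC3 upstream: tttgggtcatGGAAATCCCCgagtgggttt
BIRC3 downstream: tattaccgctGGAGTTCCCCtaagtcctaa
The members called lower in deficient against full medium (CXCL1, CXCL2, CXCL8, NFKBIA and BIRC3) each had a kappaB consensus or core match. TNFAIP3, with kappaB matches too, rose by 2.17 on the log2 scale. CXCL8, with both a core and an AP-1 match, changed by -0.95, and IL11, with an AP-1 match only, by 2.73. LIF, which rose, was the gene without a listed promoter. Any bearing of the motifs on direction was not tested. For NFKBIA and IL11 the 140 bases before the start are given whole, from chr14:35404750-35404889 and chr19:55370464-55370603 on the minus strand. NFKBIA holds a kappaB match and IL11 an AP-1 match with no kappaB match in this window.
NFKBIA: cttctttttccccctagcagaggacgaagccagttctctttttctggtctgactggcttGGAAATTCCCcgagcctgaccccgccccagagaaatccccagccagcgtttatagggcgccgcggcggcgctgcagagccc
IL11: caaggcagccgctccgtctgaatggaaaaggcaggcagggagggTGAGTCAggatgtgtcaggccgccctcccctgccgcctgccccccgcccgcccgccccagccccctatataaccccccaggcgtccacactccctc

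The libraries held 875033 to 1473587 reads assigned to genes, so that 1 read was worth 0.661 to 1.30 normalized counts, and the members rested on few reads. Protein-coding genes took 52.3% to 59.8% of reads in full medium, 48.0% to 54.6% in glutamine-only, 43.0% to 51.6% in deficient and 41.6% to 46.2% in glucose-only medium, while mitochondrial ribosomal RNA took 8.74% to 10.6% in full and 15.3% to 17.1% in deficient medium. The part of these shares in the results below was not tested, and in bulk RNA fewer cells of a kind and less RNA per cell cannot be told apart. The labelled cell type fitted its markers: all 7 mesenchymal markers of the line were high (VIM 641 to 1047 normalized counts), CDH1, ESR1 and PGR stayed under 3 in every library, and the 11 blood cell and 9 fibroblast markers were all under 10. Of 12 luminal markers 6 were under 10 throughout, with KRT8, KRT18 and KRT19 at 59.0 or more, and of 7 endothelial markers PECAM1 reached 19.7 and KDR 15.7. The summed blood cell markers were 13.3 to 18.2 in deficient against 7.27 to 10.1 in full medium. PTPRC was at 3.91, 2.41 and 3.11 in deficient against 0, 0.940 and 0 in full medium, and CD3E was at 0.940 or less. CSF1R was the highest blood cell marker in deficient medium, at 9.11, 7.24 and 9.32 against 2.64, 3.76 and 1.83 in full medium. The CD14 values of these media overlapped.

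The 8 tested genes separated into those that were lower without nutrients and those that passed as higher only when both nutrients were absent. In deficient against full medium all 8 tested genes passed the test, 5 lower (CXCL1, CXCL2, CXCL8, NFKBIA, BIRC3) and 3 higher (IL11, LIF, TNFAIP3). The background was large: 51.8% of the 9270 genes passed in this comparison, 26.3% higher and 25.5% lower. The median log2 change was -0.89 over the 8 members and 0.01 over all genes. Scaling the libraries to equal totals moved the median of all genes by -0.39 and the share of calls that were higher from 50.8% to 23.6%, and no called change of a member reversed. Tests were limma on log2(normalized count + 1), a scale that understates the change of low genes, with Benjamini-Hochberg adjustment over all 9270 genes and a threshold of 0.05. All comparisons with full medium share its 3 libraries, so their results are not independent of each other.

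**Figure D1:**
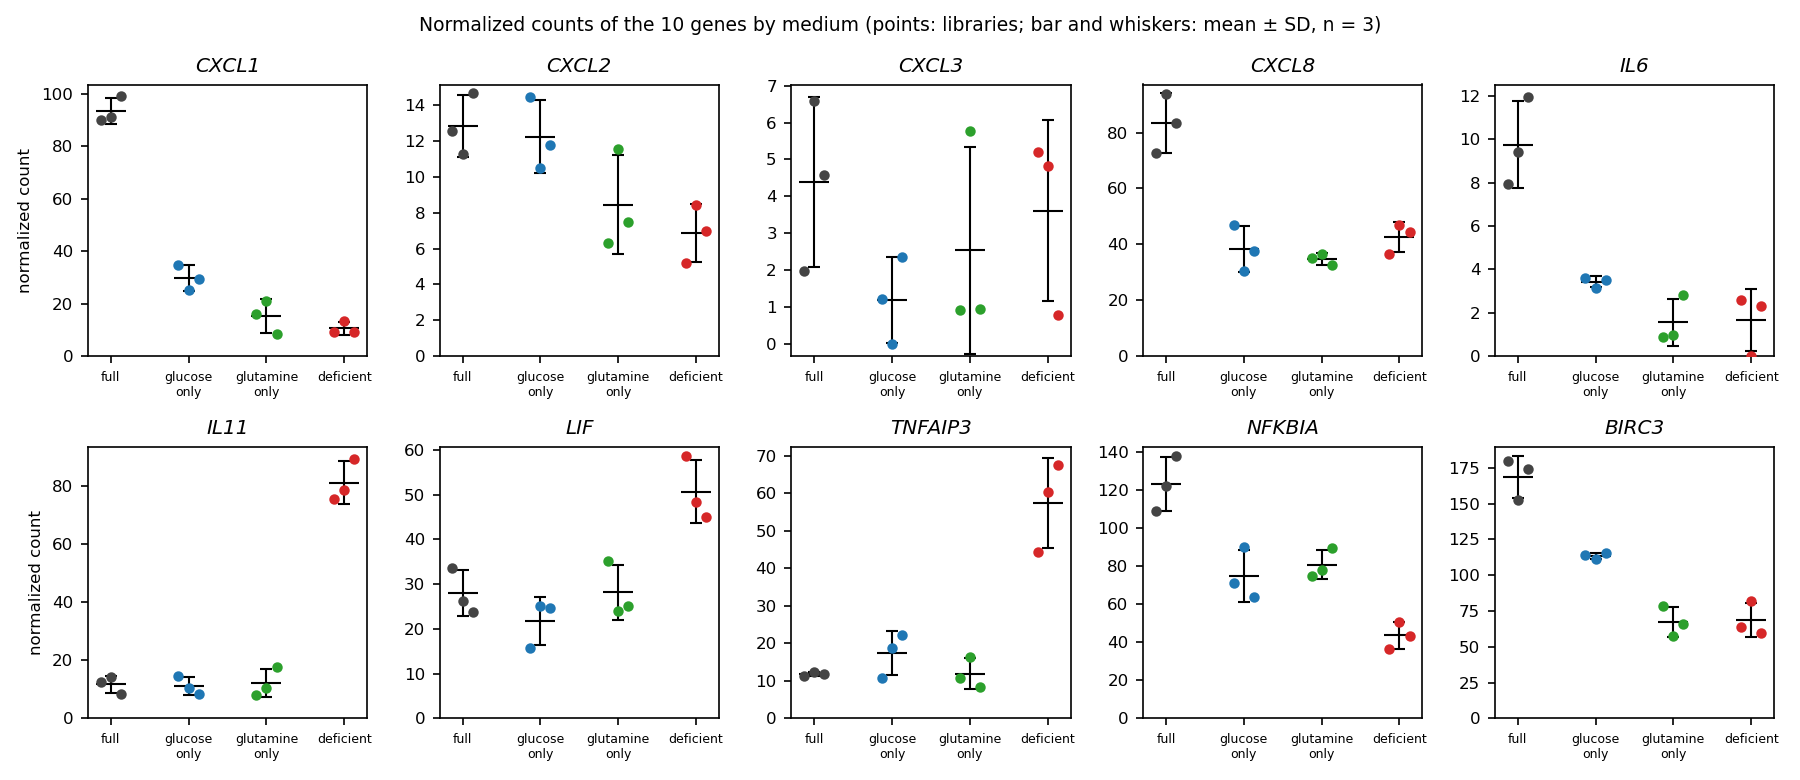
Normalized counts (vertical axes, a separate scale for each gene) of the 10 genes in the 3 libraries of each medium. Points are libraries, and bars with whiskers are the mean ± SD (n = 3). The deficient libraries stand above all others for IL11, LIF and TNFAIP3, and the full libraries stand above all others for CXCL1, CXCL8, IL6, NFKBIA and BIRC3. The share of all genes that separate so was not counted. The lower whisker of CXCL3 in glutamine-only medium reaches below 0 because its SD exceeds its mean.

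Among the tested ligands, CXCL1 had the largest fall against full medium in each of the 3 other media. CXCL1 encodes a chemokine that draws neutrophils through the receptor CXCR2, and the gene (ENSG00000163739) lies on the plus strand of chromosome 4 from 73869393 to 73871308. CXCL1 was at 89.9, 91.2 and 99.1 normalized counts in full, 34.9, 25.1 and 29.4 in glucose-only, 16.2, 21.2 and 8.39 in glutamine-only and 9.11, 13.3 and 9.32 in deficient medium. The full libraries were highest and the glucose-only libraries next, with no overlap, while glutamine-only and deficient libraries overlapped. The means were 93.4 ± 4.96, 29.8 ± 4.91, 15.3 ± 6.45 and 10.6 ± 2.35 (SD, n = 3 each) in the same order. Against full medium, CXCL1 fell in all 3 other media, with log2 changes of -3.05 ± 0.25 (SE) in deficient (limma adjusted p = 5.02e-11), -2.62 ± 0.25 in glutamine-only (4.71e-09) and -1.63 ± 0.25 in glucose-only medium (2.11e-05). Glucose-only medium gave 1.00 ± 0.25 more CXCL1 than glutamine-only medium (log2, limma adjusted p = 0.00778), a call that was lost without glutamine-only library C (adjusted p = 0.0915).

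CXCL8, or interleukin 8, also draws neutrophils, through CXCR1 and CXCR2. The gene (ENSG00000169429) lies on the plus strand of chromosome 4 from 73740569 to 73743716. Its normalized counts were 72.7, 94.0 and 83.5 in full, 47.0, 30.4 and 37.6 in glucose-only, 35.2, 36.6 and 32.6 in glutamine-only and 36.4, 47.1 and 44.3 in deficient medium. Every full library was above every other library, and the other 3 media overlapped. CXCL8 fell whichever nutrient was missing, with log2 changes against full of -1.12 ± 0.17 in glucose-only (limma adjusted p = 1.54e-05), -1.23 ± 0.17 in glutamine-only (2.93e-06) and -0.95 ± 0.17 in deficient medium (3.28e-05). Deficient medium did not differ from either single-nutrient medium by the test, with log2 differences of -0.16 ± 0.17 for glucose-only and -0.28 ± 0.17 for glutamine-only minus deficient (limma adjusted p = 0.468 and 0.199).

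CXCL2 and CXCL3 are close relatives of CXCL1 that act on the same receptor. CXCL2 (ENSG00000081041, minus strand, chromosome 4, 74097040 to 74099195) was at 12.6, 11.3 and 14.7 normalized counts in full, 14.5, 10.5 and 11.8 in glucose-only, 6.31, 11.6 and 7.46 in glutamine-only and 5.21, 8.45 and 6.99 in deficient medium. The deficient libraries were below all full and glucose-only libraries, and the glutamine-only libraries overlapped every other medium. CXCL2 fell by 0.83 ± 0.34 on the log2 scale in deficient against full medium (limma adjusted p = 0.0419), and in glucose-only and glutamine-only medium its change of -0.07 ± 0.34 and -0.58 ± 0.34 did not pass (limma adjusted p = 0.915 and 0.235). The deficient call was lost without any of the full libraries A, B and C (adjusted p = 0.0836, 0.0555 and 0.128) and without deficient library A or C (0.136 and 0.0693), and in DESeq2 (0.117). CXCL3 (ENSG00000163734, minus strand, chromosome 4, 74036589 to 74038689) did not reach 10 in any library. CXCL3 was at 1.98, 6.58 and 4.59 normalized counts in full, 1.20, 0 and 2.35 in glucose-only, 0.902, 5.78 and 0.932 in glutamine-only and 5.21, 4.83 and 0.776 in deficient medium. All its media overlapped, and its 15, 3, 8 and 9 reads in full, glucose-only, glutamine-only and deficient medium were too few to show a difference at this depth. The exon sequences of CXCL1, CXCL2 and CXCL3 shared 4.81%, 12.5% and 6.01% of their 50-base words with each other, so that a read of that length or shorter within them matches more than 1 of these genes. The read length is not given in the sources used here, and how far this touched the values was not tested.

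IL6, the founding gp130 cytokine, was low throughout and was listed on only 35, 9, 5 and 5 reads in full, glucose-only, glutamine-only and deficient medium. The gene (ENSG00000136244) lies on the plus strand of chromosome 7 from 22727200 to 22731998. Its normalized counts were 7.93, 9.40 and 11.9 in full, 3.61, 3.14 and 3.53 in glucose-only, 0.902, 0.963 and 2.80 in glutamine-only and 2.60, 0 and 2.33 in deficient medium. All 3 full libraries were above every other library, and the glucose-only libraries were above all glutamine-only and deficient libraries, which overlapped. Its 35 reads in full medium have an exact 95% Poisson interval of 24.4 to 48.7, and the 5 reads in deficient medium one of 1.62 to 11.7, both for counting error only. With no filter on low values, over 32493 genes, the log2 change was -2.22 in deficient (limma adjusted p = 0.00195), -2.13 in glutamine-only (0.00852) and -1.26 in glucose-only medium (0.249), and edgeR on the recovered reads gave adjusted p of 0.000495, 0.00049 and 0.0673. An antisense transcript overlaps 20.7% of the IL6 exon bases and was at 1.18 normalized counts or less.

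IL11 and LIF, gp130 cytokines like IL6, ran the other way. IL11, a cytokine of stromal and tumour cells known in breast cancer metastasis, lies on the minus strand of chromosome 19 from 55364382 to 55370463 (ENSG00000095752). IL11 was at 12.6, 14.1 and 8.26 normalized counts in full, 14.5, 10.5 and 8.23 in glucose-only, 8.12, 10.6 and 17.7 in glutamine-only and 75.5, 78.5 and 89.3 in deficient medium. The 3 deficient libraries stood far above the other 9, which overlapped throughout. The mean went from 11.6 ± 3.03 in full to 81.1 ± 7.26 in deficient medium (SD, n = 3 each), a rise of 2.73 ± 0.29 on the log2 scale (limma adjusted p = 4.57e-09). Either nutrient alone left IL11 near its full-medium level, with log2 changes of -0.07 ± 0.29 in glucose-only and 0.02 ± 0.29 in glutamine-only medium (limma adjusted p = 0.895 and 0.972). Of the 50-base words of IL11 exons, 1.39% also occur in other genes.

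LIF, leukaemia inhibitory factor, lies on the minus strand of chromosome 22 from 30240453 to 30246759 (ENSG00000128342). Its normalized counts were 33.7, 26.3 and 23.9 in full, 15.7, 25.1 and 24.7 in glucose-only, 35.2, 24.1 and 25.2 in glutamine-only and 58.6, 48.3 and 45.0 in deficient medium. All deficient libraries were above all others, and the other media overlapped. LIF rose by 0.84 ± 0.22 on the log2 scale in deficient against full medium (limma adjusted p = 0.00206). It changed by -0.36 ± 0.22 in glucose-only medium (adjusted p = 0.252) and by 0.00 ± 0.22 in glutamine-only medium (adjusted p = 0.995), neither of which passed. With libraries scaled to equal totals the deficient rise was 0.45 and did not pass (limma adjusted p = 0.0968). A pair of antisense transcripts overlap 4.41% and 2.32% of LIF exon bases and were at 2.60 normalized counts or less.

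Of the feedback regulators, TNFAIP3 behaved like IL11. TNFAIP3 encodes A20, a ubiquitin-editing enzyme that shuts off NF-kB signalling at the receptor complexes, and the gene (ENSG00000118503) lies on the plus strand of chromosome 6 from 137866349 to 137883312. TNFAIP3 was at 11.2, 12.2 and 11.9 normalized counts in full, 10.8, 18.9 and 22.3 in glucose-only, 10.8, 16.4 and 8.39 in glutamine-only and 44.3, 60.4 and 67.6 in deficient medium. The deficient libraries were above all 9 others, which overlapped. TNFAIP3 rose by 2.17 ± 0.28 on the log2 scale in deficient against full medium (limma adjusted p = 2.37e-07), from a mean of 11.8 ± 0.503 to 57.4 ± 11.9 (SD, n = 3 each). In the single-nutrient media its changes of 0.46 ± 0.28 (glucose-only) and -0.04 ± 0.28 (glutamine-only) did not pass (limma adjusted p = 0.251 and 0.950). An antisense transcript overlaps 1.88% of its exon bases and was at 6.51 normalized counts or less.

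NFKBIA encodes IkB-alpha, the inhibitor that NF-kB induces to return its own dimers to the cytoplasm, and unlike TNFAIP3 it fell. The gene (ENSG00000100906) lies on the minus strand of chromosome 14 from 35401513 to 35404749. NFKBIA was at 109, 122 and 138 normalized counts in full, 71.1, 90.1 and 63.5 in glucose-only, 74.9, 78.0 and 89.5 in glutamine-only and 36.4, 50.7 and 43.5 in deficient medium. The order was full, then the overlapping single-nutrient media, then deficient, with no overlap between these steps. NFKBIA fell in each, with log2 changes against full of -0.72 ± 0.15 in glucose-only (limma adjusted p = 0.000671), -0.60 ± 0.15 in glutamine-only (0.00366) and -1.48 ± 0.15 in deficient medium (1.94e-09). Means were 123 ± 14.3, 74.9 ± 13.7, 80.8 ± 7.69 and 43.5 ± 7.13 in full, glucose-only, glutamine-only and deficient medium (SD, n = 3 each).

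BIRC3 encodes cIAP2, a ubiquitin ligase at the TNF receptor that limits cell death and restrains the noncanonical NF-kB route. The gene (ENSG00000023445) lies on the plus strand of chromosome 11 from 102317484 to 102339403. BIRC3 was at 179.8, 152 and 174 normalized counts in full, 114, 111 and 115 in glucose-only, 78.5, 57.8 and 66.2 in glutamine-only and 63.8, 82.1 and 59.8 in deficient medium. The full libraries were highest, the glucose-only libraries next, and the glutamine-only and deficient libraries overlapped at the bottom. BIRC3 fell in each, with log2 changes against full of -0.56 ± 0.13 in glucose-only (limma adjusted p = 0.00249), -1.32 ± 0.13 in glutamine-only (1.10e-08) and -1.30 ± 0.13 in deficient medium (3.30e-09). Its level did not differ between glutamine-only and deficient medium by the test (log2 difference -0.02 ± 0.13, limma adjusted p = 0.920), and it was higher by 0.75 ± 0.13 in glucose-only than in glutamine-only medium (limma adjusted p = 0.000177).

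**Figure D2:**
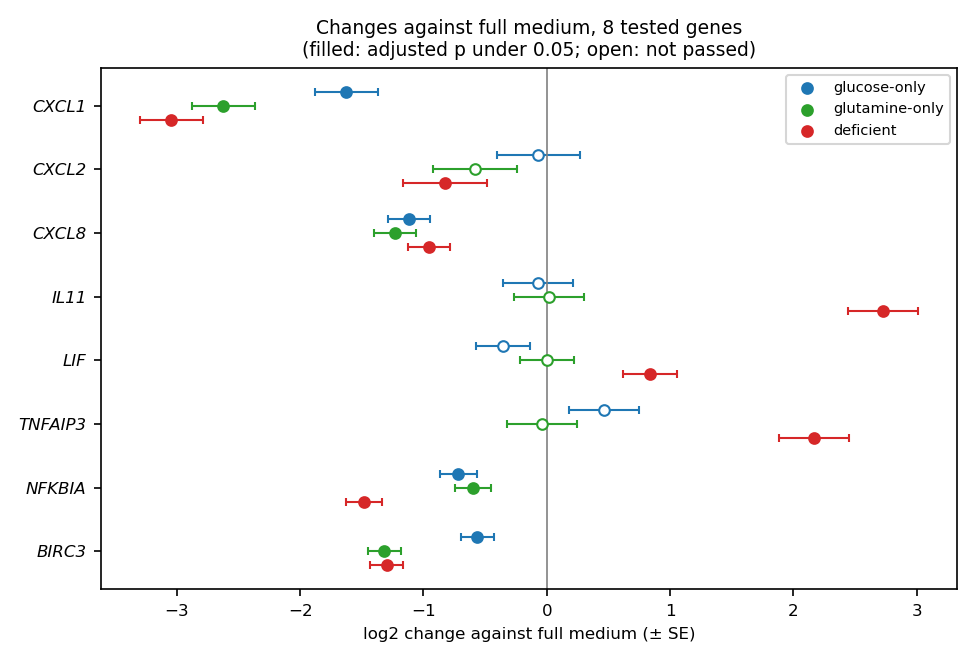
Log2 change against full medium (horizontal axis, limma estimate ± SE, 3 libraries per medium) of the 8 tested genes in glucose-only, glutamine-only and deficient medium. Filled points passed at an adjusted p under 0.05 and open points did not. CXCL1, CXCL8, NFKBIA and BIRC3 are left of 0 in all 3 media, while IL11, LIF and TNFAIP3 are called only in deficient medium, at 2.73, 0.84 and 2.17.

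When a single nutrient was withdrawn, no member rose. In glucose-only against full medium 4 of the 8 tested genes passed, all lower, and 4 did not pass, where 22.9% of all genes passed, 9.44% higher and 13.5% lower. The median log2 change was -0.46 over the members and -0.03 over all genes. In glutamine-only against full medium the same count held, 4 lower and 4 not passed, against 22.5% of all genes, 10.8% higher and 11.6% lower, with medians of -0.59 and -0.01. CXCL1, CXCL8, NFKBIA and BIRC3 were the 4 genes in both comparisons. Between the single-nutrient media CXCL1 and BIRC3 passed, both higher with glucose, that is 2 of 8 members against 13.3% of all genes (5.05% higher and 8.26% lower), and the medians were 0.31 and -0.00.

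Setting the single-nutrient media against deficient medium reads the same data from the other side, and no nutrient was given back to deprived cells. Glucose-only against deficient medium had 6 of the 8 genes past the test, 3 higher and 3 lower, where 43.2% of all genes passed, 20.1% higher and 23.2% lower. CXCL1 was higher by 1.42 ± 0.25, NFKBIA by 0.77 ± 0.15 and BIRC3 by 0.73 ± 0.13 with glucose (log2, limma adjusted p = 4.79e-05, 0.000128 and 5.90e-05). IL11, TNFAIP3 and LIF were lower, with log2 changes of -2.80 ± 0.29, -1.71 ± 0.28 and -1.20 ± 0.22 (limma adjusted p = 5.74e-09, 1.69e-05 and 6.14e-05). Glutamine-only against deficient medium had 1 higher and 3 lower of 8, against 41.5% of all genes, 19.9% higher and 21.6% lower. With glutamine the same 3 genes were lower, with log2 changes of -2.71 ± 0.29 for IL11, -2.21 ± 0.28 for TNFAIP3 and -0.84 ± 0.22 for LIF (limma adjusted p = 1.27e-08, 3.79e-07 and 0.00305). NFKBIA was the gene that was higher, by 0.88 ± 0.15 (limma adjusted p = 2.37e-05). CXCL1 at 0.42 ± 0.25 did not pass (limma adjusted p = 0.188), although it did without glutamine-only library C (0.0123). The median log2 changes of the members were 0.29 with glucose and -0.15 with glutamine, and those of all genes -0.00 and -0.01.

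The interaction term asks whether the effect of a nutrient depends on the other. It is the sum of the log2 levels in full and deficient medium less those in the single-nutrient media, so that a positive value means that the both-absent medium lies above what the separate withdrawals add up to. Of the 8 genes 6 passed, all positive, and 2 did not, where 26.5% of all genes passed, 15.5% with a positive term, and the median was 1.20 over the members and 0.06 over all genes. IL11 had 2.78 ± 0.40 (limma adjusted p = 6.29e-06), TNFAIP3 1.74 ± 0.40 (0.00160) and LIF 1.19 ± 0.31 (0.00462). Each of these genes passed against full medium only in deficient medium. The terms also hold glucose-only changes that did not pass, -0.36 for LIF, which enlarges its term, and 0.46 for TNFAIP3, which lowers it. CXCL8 had 1.39 ± 0.24 (limma adjusted p = 7.78e-05) and CXCL1 1.20 ± 0.36 (0.0134), where each withdrawal lowered the gene and the second lowered it less or not at all. The CXCL1 term did not pass without glutamine-only library C (0.0528) or in DESeq2 (0.0958). BIRC3 had 0.58 ± 0.19 (limma adjusted p = 0.0217), which was lost without glutamine-only library B (0.0754), deficient library B (0.0711) or full library A (0.0597), with equal totals (0.0762), in DESeq2 (0.147) and with quantile normalization, where it was 0.33 (0.218). NFKBIA, at -0.17 ± 0.21 (limma adjusted p = 0.599), gave no detectable departure from additive withdrawals, nor did CXCL2 at -0.17 ± 0.48 (0.824).

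**Figure D3:**
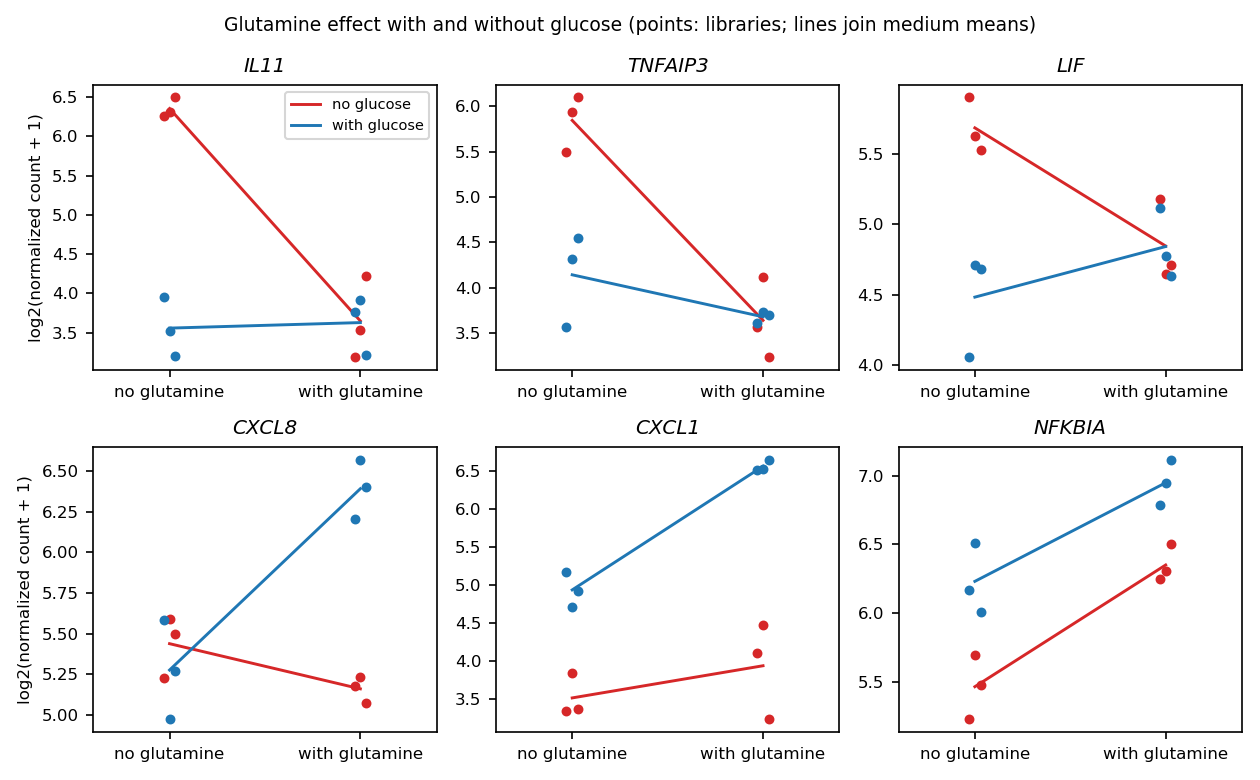
Log2(normalized count + 1) of 6 genes (vertical axes, a separate scale for each) without and with glutamine, in media with glucose (blue) and without it (red). Points are libraries and lines join the means of 3. For IL11, TNFAIP3 and LIF the red line drops with glutamine while the blue line changes less. For CXCL1 the blue line climbs more steeply than the red, for CXCL8 the blue line climbs while the red line drops slightly, and for NFKBIA the lines run nearly parallel.

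Levels between genes were compared per kilobase of annotated exon, taken as the union of all exons listed for a gene. Such a union can be longer than the transcripts made, and for CXCL3 it was 2219 bases in 1 unbroken block. The order between genes is therefore approximate and is not an order of transcript numbers. In full medium CXCL1 was highest at 72.1 ± 3.83 normalized counts per kb (SD, n = 3 here and below), followed by NFKBIA at 51.8 ± 6.01, CXCL8 at 36.7 ± 4.68 and BIRC3 at 22.5 ± 1.94. CXCL2 (8.56 ± 1.14) and LIF (7.05 ± 1.29) came next and did not differ beyond their spread, as did not IL6 (4.71 ± 0.976) and IL11 (4.36 ± 1.13), nor TNFAIP3 (2.34 ± 0.0995) and CXCL3 (1.98 ± 1.04). In deficient medium IL11 was at the top with 30.4 ± 2.72 normalized counts per kb. CXCL8 (18.7 ± 2.42) and NFKBIA (18.4 ± 3.01) followed without differing beyond their spread, then LIF (12.8 ± 1.78) and TNFAIP3 (11.4 ± 2.36), and then BIRC3 (9.12 ± 1.58) and CXCL1 (8.16 ± 1.81), pairs whose spreads also overlapped. CXCL2 (4.59 ± 1.08), CXCL3 (1.62 ± 1.11) and IL6 (0.795 ± 0.691) were lowest. By this measure the chemokine highest in full medium was thus among the lower members in deficient medium, and IL11 was at the top.

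The genes around the members were read from lists of the pathway. The background of each count below in deficient against full medium is all 9270 genes, of which 26.3% were called higher and 25.5% lower. Counts given with equal totals have another background, where 1166 of the 9270 genes were called higher and 3777 lower. All 5 NF-kB subunits were tested, and 3 rose in deficient medium: RELB by 1.01 ± 0.24 on the log2 scale (limma adjusted p = 0.00074), RELA by 0.67 ± 0.15 (0.000582) and NFKB2 by 0.46 ± 0.18 (0.0338). RELA, the main activating subunit, was at 57.9 ± 3.97 normalized counts in full and 93.7 ± 18.5 in deficient medium (SD, n = 3 each). NFKB1, at -0.03 ± 0.21, did not pass (limma adjusted p = 0.906). With equal library totals only 1 of the 5 subunits passed, and RELA was at 0.27 (0.176) and NFKB2 at 0.07 (0.806).

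Among 14 IkB proteins and feedback inhibitors, 11 were tested, of which 4 rose, 3 fell and 4 did not pass in deficient against full medium (1, 3 and 7 with equal totals). These counts include the members TNFAIP3 and NFKBIA. Without them 9 were tested, of which 3 rose, 2 fell and 4 did not pass. BCL3, an atypical IkB that can activate p50 and p52 dimers, fell with NFKBIA: its means were 55.1 ± 4.70, 20.3 ± 5.14, 28.1 ± 4.97 and 9.45 ± 1.54 normalized counts in full, glucose-only, glutamine-only and deficient medium (SD, n = 3 each). BCL3 fell by 2.43 ± 0.24 on the log2 scale in deficient medium (limma adjusted p = 1.03e-09), with no overlap between full and deficient libraries. TNIP1, a partner of A20, fell by 1.07 ± 0.13 (limma adjusted p = 3.75e-08), although TNFAIP3 itself rose.

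Upstream of NF-kB, 28 of 31 kinases and adaptors were tested, with 7 higher, 5 lower and 16 not passed in deficient medium. In that comparison 51.8% of all genes were called, 26.3% higher and 25.5% lower. With equal totals 4 were higher, 8 lower and 16 not passed. These counts include the member BIRC3. Without it 27 were tested, with 7 higher, 4 lower and 16 not passed. BCL10, an adaptor of the CARD-BCL10-MALT1 complex, was at 32.7 ± 5.68 normalized counts in full, 33.4 ± 11.2 in glucose-only, 36.6 ± 1.23 in glutamine-only and 106 ± 9.63 in deficient medium (SD, n = 3 each). BCL10 had thus the shape of IL11, with an interaction of 1.51 ± 0.27 (log2, limma adjusted p = 9.73e-05). MALT1, its protease partner, rose by 1.32 ± 0.17 in deficient medium and also in both single-nutrient media (limma adjusted p = 1.37e-07 in deficient medium). RBCK1, a subunit of the linear ubiquitin ligase, rose by 1.56 ± 0.13 in deficient medium, and by 2.40 ± 0.13 and 2.08 ± 0.13 in glucose-only and glutamine-only medium (limma adjusted p = 4.22e-11, 2.01e-14 and 3.63e-13).

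Of 18 receptors that feed NF-kB, 11 were tested, with 4 higher, 3 lower and 4 not passed in deficient medium. TNFRSF12A, the TWEAK receptor, rose from 49.9 ± 1.28 normalized counts in full to 154 ± 35.0 in deficient medium, by 1.58 ± 0.15 on the log2 scale (limma adjusted p = 1.18e-09). IL1RAP, the shared chain of the IL-1 receptor, rose by 1.15 ± 0.26 and LTBR by 0.90 ± 0.13, while TNFRSF21 fell by 1.24 ± 0.14 (limma adjusted p = 0.000508, 2.47e-06 and 1.54e-08). None of 6 chemokine receptors reached the filter: CXCR2 was listed at 0 in every library and CXCR4 was at 9.32 or less.

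Of 48 other targets of NF-kB 19 were tested, and in deficient medium 4 rose, 10 fell and 5 did not pass, where 26.3% of all genes were called higher and 25.5% lower. Their median log2 change was -0.47, against 0.01 over all genes. The counts were 1 higher and 7 lower in glucose-only medium (all genes 9.44% and 13.5%) and 0 higher and 9 lower in glutamine-only medium (10.8% and 11.6%). The difference of the list from all genes was not tested. CSF1, the macrophage growth factor, was at 405 ± 14.5, 197 ± 14.1, 293 ± 4.48 and 95.7 ± 6.61 normalized counts in full, glucose-only, glutamine-only and deficient medium (SD, n = 3 each), and fell by 2.07 ± 0.10 on the log2 scale in deficient medium (limma adjusted p = 1.62e-16). ICAM1, an adhesion molecule for leukocytes, fell only where both nutrients were absent, from 86.2 ± 14.3 to 27.8 ± 5.21 normalized counts, against 82.2 ± 4.23 and 83.0 ± 3.12 in glucose-only and glutamine-only medium. ICAM1 was thus the reverse of IL11, with an interaction of -1.50 ± 0.21 (log2, limma adjusted p = 3.99e-06). SOD2, the mitochondrial superoxide dismutase, fell by 1.18 ± 0.13 and TNFAIP2 fell by 1.10 ± 0.22 in deficient medium (limma adjusted p = 1.70e-08 and 0.000122). The listed genes IER3, TNF, LTA, LTB and TAP1 lie in a stretch of chromosome 6 from 29 to 34 Mb where 3 of 171 protein-coding genes reached a mean of 10, so their values of 5.41 or less do not show that they were silent.

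For the gp130 cytokines, 12 of 19 receptor and signalling genes were tested, with 2 higher, 2 lower and 8 not passed in deficient medium. With equal totals the counts were 1, 7 and 4, where 1166 of 9270 genes were called higher and 3777 lower. IL6ST, which encodes gp130, was at 550 ± 64.0 normalized counts in full and 515 ± 69.5 in deficient medium, a log2 change of -0.10 ± 0.11 that did not pass (limma adjusted p = 0.467), although it did with equal totals, at -0.50 (0.00179), and with quantile normalization, at -0.44 (0.00186). The specific receptors IL6R and IL11RA were at 2.41 normalized counts or less. LIFR, the LIF receptor, was at 28.9 to 89.3 over the 12 libraries. PIM1, a kinase gene known as a STAT3 target, rose by 1.01 ± 0.24 in deficient medium (log2, limma adjusted p = 0.000773). OSMR and PTPN11 fell, with changes of -0.44 ± 0.13 and -0.40 ± 0.11 (0.00739 and 0.00276).

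Regulators of AU-rich messenger RNA were all tested, 15 of 15, and in deficient medium 6 rose, 3 fell and 6 did not pass (3, 6 and 6 with equal totals). DUSP1, a phosphatase that switches off p38 and JNK, went from 12.6 ± 2.43 normalized counts in full, 12.4 ± 4.49 in glucose-only and 19.3 ± 2.47 in glutamine-only to 216 ± 13.1 in deficient medium (SD, n = 3 each), a log2 change of 4.01 ± 0.23 against full (limma adjusted p = 1.78e-14). ZFP36 encodes tristetraprolin, which binds AU-rich elements of cytokine transcripts and promotes their decay. ZFP36 rose by 3.21 ± 0.38, from 5.43 ± 2.02 to 56.8 ± 9.44 normalized counts (limma adjusted p = 3.62e-08), and its relative ZFP36L1 rose by 1.95 ± 0.10 (2.79e-15). TIA1 fell by 0.99 ± 0.18 (4.54e-05). The interaction was positive and past the test for 11 of the 15, negative for 1 and not passed for 3. Of all genes 26.5% passed and 15.5% passed with a positive term. With equal totals the counts were 7, 1 and 7, where 1076 of 9270 genes passed with a positive and 1008 with a negative term. With quantile normalization they were 4, 1 and 10, where 1057 genes passed with a positive and 1255 with a negative term.

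**Figure D4:**
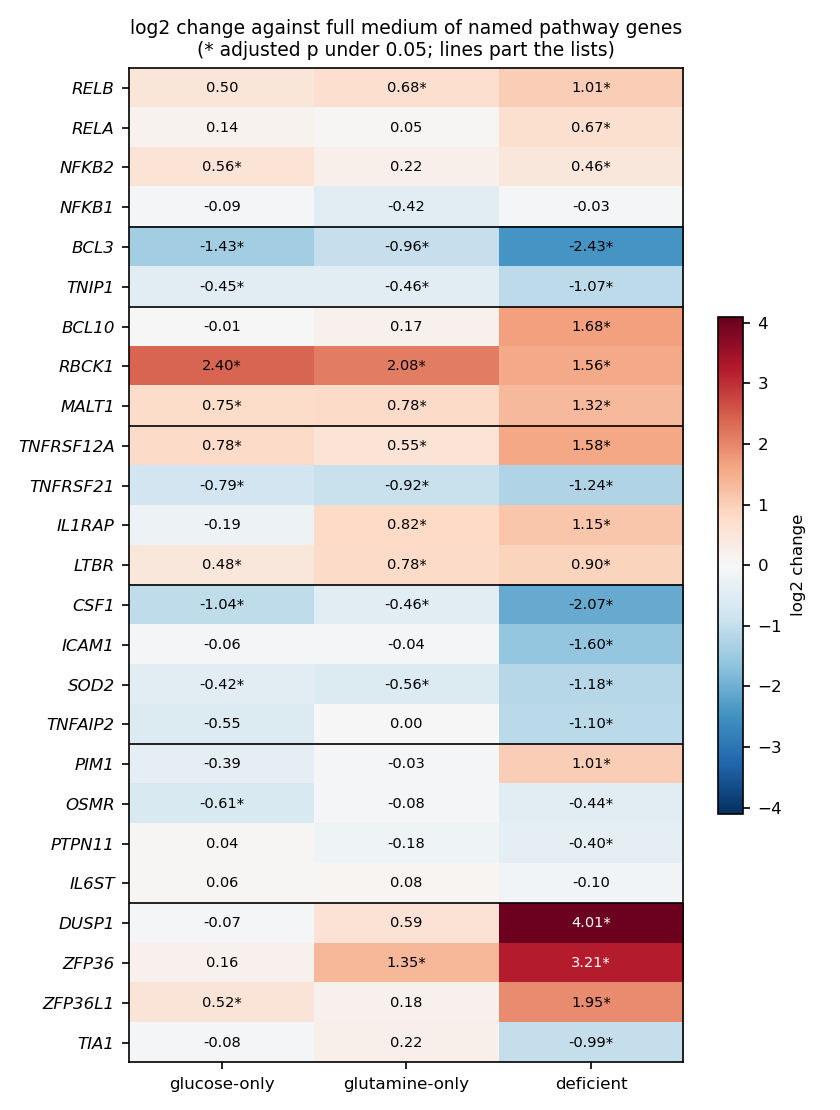
Log2 change against full medium (colour and printed value, limma estimate from 3 libraries per medium) of the named pathway genes in glucose-only, glutamine-only and deficient medium. Asterisks mark an adjusted p under 0.05 and lines part the lists. DUSP1 and ZFP36 have the highest values in deficient medium, at 4.01 and 3.21, and BCL3 and CSF1 the lowest, at -2.43 and -2.07.

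The 4 chemokine genes lie in a cluster on chromosome 4, and their neighbours there were read beside them. CXCL6, PF4V1, PF4, PPBP and RASSF6 were listed at 0 in every library and CXCL5 was at 0.917 or less, EPGN at 8.39 or less and BTC at 4.66 or less, so only MTHFD2L, EREG, AREG and PARM1 were tested. EREG, an EGF receptor ligand, rose by 0.79 ± 0.15 on the log2 scale in deficient medium (limma adjusted p = 5.25e-05), or 0.39 with equal totals, which did not pass (0.0617). MTHFD2L at 0.53 ± 0.27, AREG at 0.20 ± 0.15 and PARM1 at 0.49 ± 0.34 did not pass in deficient medium (limma adjusted p = 0.102, 0.293 and 0.235). None of these 4 passed as lower in deficient medium, also with equal totals, while CXCL1, CXCL2 and CXCL8 did and CXCL3 was not tested. Of all genes 25.5% were called lower in deficient against full medium, and 4 neighbours are too few to be told from that share.

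For 4 members the genes with the most similar profile over the 12 libraries were sought among 6026 tested genes with a mean of at least 20, by the root-mean-square difference of centred log2 values, as a description with no test. CXCL8, whose own deviation about its mean was 0.515, was nearest to GLO1 at 0.197, STMN1 at 0.204 and PODXL at 0.209. LIF (own deviation 0.497) was nearest to DAPK3 at 0.179, then PIM1 at 0.201 and FAM3C at 0.214. NFKBIA (0.553) was nearest to RBMX at 0.132, SLC16A3 at 0.156, which encodes the lactate exporter MCT4, and SFXN1 at 0.159. TNFAIP3 (0.951) was nearest to the transcription factor genes ETS1 at 0.299 and FOXC1 at 0.305, and then WDR3 at 0.323. ETS1 had means of 141, 167, 127 and 542 normalized counts in full, glucose-only, glutamine-only and deficient medium.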

How the data were processed

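RNA was measured in 12 libraries of MDA-MB-231 cells, 3 in each of 4 media, grouped by the sample titles. The deposited values are gene-level signal: read numbers scaled by a size factor for each library, as the values show. Per the submitters' processing notes the authors used FastQC, HISAT2, Subread and DESeq2 with build GRCh38.p14. Versions, annotation release and strand setting are not given in the sources used here. A stranded kit was used, per the labels' protocols. Every value was a whole multiple of 1 step per library within 0.01 reads (100% of values), so reads were recovered for edgeR and DESeq2.

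Genes at 10 or more in at least 3 libraries (9270 of 32493 with reads) were fitted with limma 3.58.1 (trend) in R 4.3.3 on log2(value + 1), with 4 medium means over all 12 libraries, two-sided, Benjamini-Hochberg adjusted over 9270 genes. Squared differences between replicate libraries, over the variance of sampling noise, had means of 1.18 to 7.88 and medians of 0.487 to 0.638. Sampling noise alone gives a mean near 1, so replicates differed by more than that on average, which is not shown for each gene. Alternatives were other pseudocounts (0.5 and 8), other filters (none, or a mean of 100 or more), other scalings (equal totals, quantiles), a replicate block, the media compared alone, each library left out in turn, and edgeR 4.0.16 and DESeq2 1.42.0 on recovered reads.

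The members and lists were chosen with earlier results of these data known. A gene of the gp130 list is not reported here. Named besides the members were up to 4 called genes per list with the largest change in deficient against full medium and a mean of at least 20, a few fixed pathway genes, the chromosome 4 cluster, and the 3 nearest profiles of CXCL8, LIF, NFKBIA and TNFAIP3. Levels of the receptors and of the chromosome 6 genes were given after they were seen to be low. Gene positions and promoters are RefSeq's (GRCh38.p14). Exon lengths, overlaps and shared 50-base words are from GENCODE 29. TNFAIP3's promoter entry starts inside the gene interval.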

Additional observations from a re-analysis of the deposited data

Results flagged for a closer look

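For 6 members the effect of 1 nutrient on the log2 scale differed with the presence of the other, by the interaction term of limma over all 9270 genes, of which 26.5% passed and 15.5% passed with a positive term. The terms were 2.78 for IL11, 1.74 for TNFAIP3, 1.39 for CXCL8, 1.20 for CXCL1, 1.19 for LIF and 0.58 for BIRC3. For IL11, TNFAIP3 and LIF every deficient library was above all 9 others. For CXCL8 every full library was above all 9 others. The share of all genes that separate in these ways was not counted, so the separations are descriptions only. The terms of CXCL1 and BIRC3 did not pass in DESeq2, with adjusted p of 0.0958 and 0.147. The BIRC3 term also missed with equal totals (0.0762) and with quantile normalization, where it was 0.33 (0.218).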

How the results depend on the processing

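Over the 8 tested genes and 7 contrasts (56 results), 887 alternative values were computed, of which 865 kept their side of the threshold, 19 lost the call and 3 gained it. No called change reversed, while 29 values of 11 results that were not called changed sign, the largest of them 0.27 in size. Of 34 called results, 29 stayed called in every alternative run, and the 5 others are CXCL2 and LIF in deficient against full, CXCL1 in glucose-only against glutamine-only, and the interactions of CXCL1 and BIRC3. CXCL2 also missed with no filter (adjusted p = 0.0806) and quantile normalization (0.157), and the BIRC3 interaction with no filter (0.0808). With equal totals CXCL2 passed in glucose-only against deficient (0.0370) and CXCL1 in glutamine-only against deficient medium (0.0278). A mean of at least 100 left BIRC3 alone of the members to test, so that 1 member passed in each contrast except glutamine-only against deficient medium, where 0 did. Leaving out each library of the media compared gave 7 to 8 members in deficient against full, 4 to 5 in glutamine-only against deficient, 1 to 2 in glucose-only against glutamine-only and 5 to 6 in the interaction.

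Over all genes that filter gave 903, 615, 624, 776, 777, 486 and 632 calls in deficient, glucose-only and glutamine-only against full, glucose-only and glutamine-only against deficient, glucose-only against glutamine-only, and the interaction, against 4804, 2124, 2083, 4008, 3844, 1234 and 2458. DESeq2 gave 1255 in glucose-only against full, 604 in glucose-only against glutamine-only and 1495 in the interaction; the cause was not tested. Equal totals moved the median of all genes by -0.39, -0.21, -0.12, 0.17 and 0.27 in the first 5 contrasts, and the share of calls that were higher from 50.8% to 23.6%, 41.2% to 15.5%, 48.2% to 31.6%, 46.4% to 63.4% and 48.0% to 75.0%, and in glucose-only against glutamine-only from 37.9% to 21.3%. Quantile normalization moved it from 58.5% to 45.7% in the interaction. Over the 4 media the replicate letters did not pair the libraries throughout. The 18 same-letter pairs had correlations of deviations from -0.36 to 0.63 over 1212 genes, with 7 over 0.1. The 36 pairs with other letters had -0.60 to 0.41. What the letters mark is not stated. Between glutamine-only and full medium alone all 3 same-letter pairs were over 0.1 (A 0.28, B 0.15 and C 0.54), and the replicate block changed no call of a member there. Between deficient and full medium the same-letter correlations were 0.03 for A, 0.44 for B and 0.63 for C. For C the value between deficient and glutamine-only medium was 0.54. A replicate block called the same numbers of members, 8, 4, 4, 6, 4, 2 and 6, and 4863 genes in deficient against full medium. At 875033 to 1473587 reads per library, differences in CXCL3 were not detectable.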
